A study of Mus musculus with 3 samples.

Results

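The genes described here are the matrix metalloproteinases (Mmp), the ADAMTS proteinases (Adamts), the ADAMTS-like proteins (Adamtsl) and the tissue inhibitors of metalloproteinases (Timp), chosen by gene name from the array's own annotation. They came to 51 genes read by 74 probes, of 30119 genes and 39429 probes on the array. They were compared between mouse embryoid bodies, the floating aggregates that embryonic stem cells form when they differentiate, of 2 genotypes grown in parallel for 10 days in suspension without the self-renewal cytokine LIF. One genotype was "Wildtype control". The other was "Dido3deltaCT+HADidoNT", in which the Dido3 protein lacks its C-terminal end and the N-terminal region common to the Dido proteins, with its PHD domain, is overexpressed. The labels give 3 biological replicates of each genotype, and 3 two-colour arrays were hybridised, each with 1 RNA of either genotype. The mutant RNA carried Cy3 on arrays 1 and 3, and on array 2 it carried Cy5. The number of stem cell clones behind a genotype and the promoter of the overexpressed region were not given in the sources used here, and neither was whether the replicates came from separate cultures, so p-values measure only the spread between these samples.

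Matrix metalloproteinases and ADAMTS enzymes are zinc-dependent enzymes that cut collagens, proteoglycans and other proteins outside the cell. Most are made as inactive precursors, some stay tethered to the cell membrane, and the tissue inhibitors block them by binding their active site. ADAMTS-like proteins share the ancillary domains of ADAMTS enzymes but have no proteinase domain, and several bind the fibrillin microfibrils of the matrix. In early mouse embryos and embryoid bodies such proteins act where basement membranes and the first mesenchymal matrix are laid down and remodelled.

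All ratios are log2 of mutant over wild type, positive where the mutant was higher, with the 3 values in the order of arrays 1, 2 and 3 and an SD over n = 3 arrays. Levels are log2 channel intensities of 1 probe in arbitrary units, and serve to compare genotypes for that probe only. A gene was kept when one of its probes stood well above background on every array in the mutant, in the wild type or in both, and its brightest kept probe stood for it. This left 30 of the 51 genes (58.8%), against 19667 of 30119 genes on the array (65.3%). "Called" means a limma p under 0.05 after Benjamini-Hochberg adjustment over all 19667 genes.

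The probes of Dido1, the gene the genotype names, did not move together. Of 4 kept probes, 2 averaged 3.03 ± 0.34 and 2.35 ± 0.40, 1 averaged -3.60 ± 0.17 and 1 averaged -0.54 ± 0.93, and which of them lie in the truncated or the overexpressed part was not analysed here. The 3 arrays had log2 ratios with SDs of 0.92, 0.80 and 0.89 over all kept genes. Array 2, the array with exchanged dyes, had the sign opposite to both others in 38.4% of all kept genes, against 7.5% for array 1 and 12.5% for array 3. Dye and replicate cannot be told apart in this design. Of the 30 kept genes of these families, array 2 had the odd sign in 6, array 1 in 5 and array 3 in 7, and 12 had one sign on all arrays (40%, against 41.6% of all genes). These were 7 higher on all arrays (23.3%, against 22.5% of all genes) and 5 lower (16.7%, against 19.1%).

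Adamts2 and Mmp14 rose in the mutant, by 6.75-fold and 6.45-fold in the main setting, and were the 2 genes of 30 that were called. The Adamts2 value is that of its brighter probe, whose wild-type levels were low. Adamts2 encodes the proteinase that removes the N-terminal propeptide of fibrillar procollagens, and Mmp14 a membrane-anchored collagenase that also activates the Mmp2 precursor. No gene of these families was called lower. The share called, 2 of 30 (6.67%), stands beside 1.65% of all genes, where 1.27% were called higher and 0.386% lower. At an unadjusted limma p under 0.05 there were 9 of 30 (30%), 6 of them higher and 3 lower, against 19.9% of all genes, 12.1% higher and 7.77% lower. At least 2-fold in one direction on every array were the same 2 genes (6.67%), against 4.18% of all genes, 3.1% higher and 1.08% lower. The median ratio of the 30 genes was 0.14, beside -0.013 for all kept genes, and on single arrays it was 0.23, 0.01 and 0.04.

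**Figure D1:**
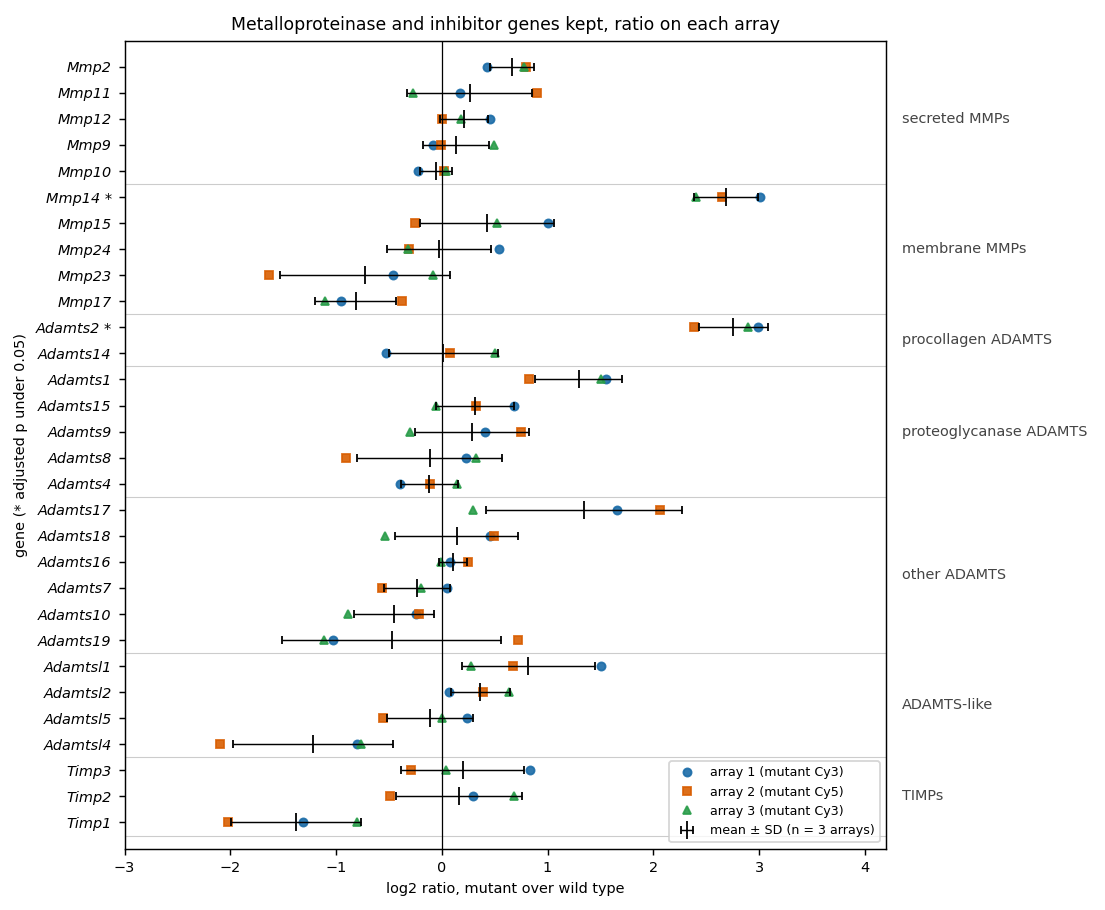
Log2 ratio of mutant over wild type (x axis) for each of the 30 kept genes (y axis, grouped by role), with 1 symbol per array and the mean ± SD of 3 arrays in black. Adamts2 and Mmp14, marked with an asterisk for a limma adjusted p under 0.05, lie at 2.38 or above on every array, and the other means lie between -1.38 and 1.34.

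Among the membrane-anchored matrix metalloproteinases, Mmp14 (probe at chr14:55058775-55058834, mm9, plus strand) had levels of 10.83, 11.21 and 11.11 in the mutant and 7.82, 8.56 and 8.70 in the wild type. Every mutant value lay above every wild-type value. The share of all genes for which this held was not counted, and such gaps, here or below, have no share beside them. The ratios were 3.01, 2.65 and 2.41, a mean of 2.69 ± 0.30 with a 95% interval of 2.14 to 3.24 and an adjusted p of 0.0354 in limma. The call was lost in 5 of 18 alternative settings, among them leaving out replicate 1 (adjusted p = 0.210), leaving out replicate 3 (adjusted p = 0.130) and the authors' deposited log ratios (adjusted p = 0.0599). The mean stayed between 2.14 and 3.01 in all 18.

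Of 7 membrane-anchored enzymes on the array 5 were kept, 1 was called, and their median was -0.03. Mmp17, whose product is held at the surface by a GPI anchor, was lower in the mutant on every array, at -0.96, -0.38 and -1.10 (mean -0.81 ± 0.38, adjusted p = 0.155). It passed with a dye term (adjusted p = 0.0490) and without replicate 2 (adjusted p = 0.0230). Over all genes those settings called 2534 and 5082, against 325 in the main setting. A pass in them, here or below, stands beside far more calls over the array. Mmp23, which is released when its membrane anchor is cut, read -0.46, -1.63 and -0.09 (mean -0.73 ± 0.80, adjusted p = 0.342), and passed with a dye term (adjusted p = 0.0371). These negative values differ in which array was lowest: array 3 for Mmp17 and array 2 for Mmp23. The transmembrane enzyme Mmp15 read 1.01, -0.25 and 0.52, and Mmp24 read 0.54, -0.31 and -0.32, so neither kept one sign. Mmp16, also transmembrane, was not well above background in any of the 6 channels, and the GPI-anchored Mmp25 was so in 2 of 6.

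Of 3 procollagen-processing ADAMTS enzymes on the array 2 were kept and 1, Adamts2, was called. The brighter Adamts2 probe (chr11:50617472-50617531, mm9, plus strand) had levels of 9.84, 9.68 and 9.71 in the mutant and 6.86, 7.30 and 6.81 in the wild type. The mutant levels spanned less than the gap to the highest wild-type level, and the genotypes did not overlap. The ratios were 2.99, 2.38 and 2.89, a mean of 2.75 ± 0.33 with a 95% interval of 2.19 to 3.32 and an adjusted p of 0.0354 in limma. As for Mmp14, the call was lost in 5 of 18 alternatives, with an adjusted p of 0.210 without replicate 1 and 0.130 without replicate 3. The wild-type levels of this probe were low, with a mean of 6.99, though well above background on all 3 arrays. The size of its mean ratio moved with the treatment of the background. It was 2.15 without a background limit, 3.17 with an offset of 16 and 4.02 in the scanner's log ratio.

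A dimmer Adamts2 probe did not show this difference. It lies at chr11:50590188-50590247, on the 5′ side of the brighter probe, and read 0.05, 0.48 and 0.05 (mean 0.19 ± 0.25). Its mean levels were 6.58 in the mutant and 6.38 in the wild type, and it was well above background on 3 mutant and 2 wild-type arrays. With the kept probes of a gene averaged, Adamts2 read 1.47 and was still called. Which transcripts either probe reads was not analysed here. Adamts14, a second procollagen N-proteinase, read -0.52, 0.07 and 0.50, with a mean of 0.02 ± 0.51. Adamts3, the remaining one, was well above background in 4 of 6 channels on its best probe and was not kept.

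**Figure D2:**
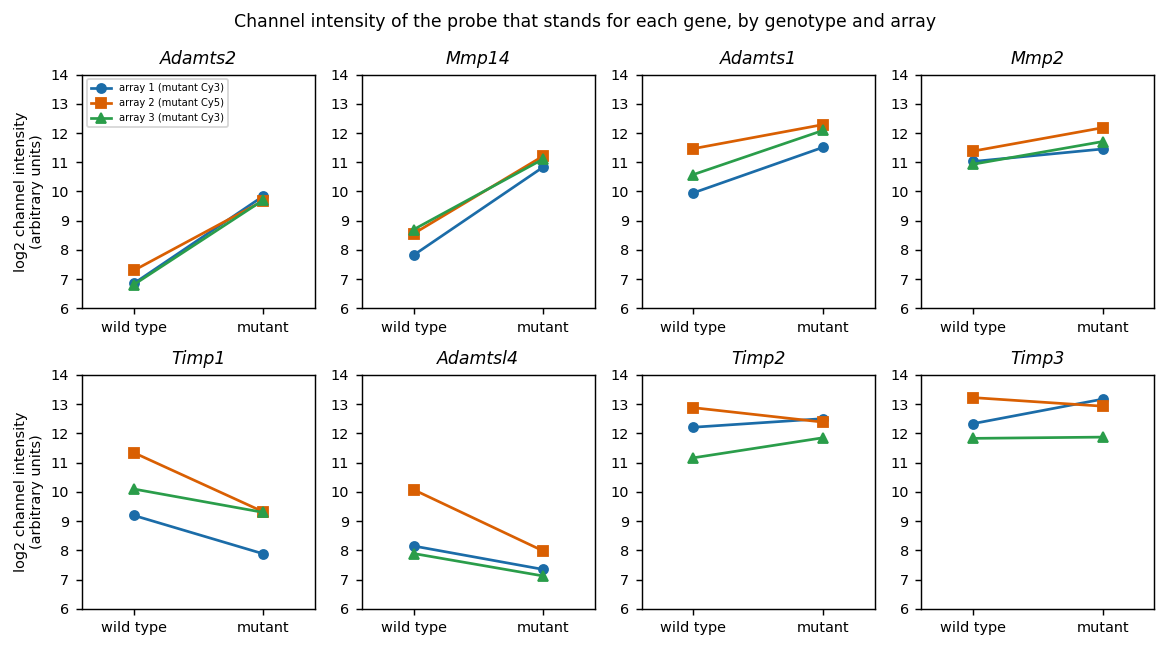
Log2 channel intensity (y axis, arbitrary units) of the probe that stands for each of 8 genes in wild type and mutant (x axis), with 1 line per array. For Adamts2 the mutant points sit between 9.68 and 9.84 and the wild-type points between 6.81 and 7.30, whereas the lines of Timp2 and Timp3 cross.

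The ADAMTS enzymes that cleave large proteoglycans such as versican and aggrecan had 5 of 7 genes kept, none called, and a median of 0.28. Adamts1 had the largest ratios of the group, at 1.55, 0.82 and 1.51. Its levels were 11.51, 12.29 and 12.09 in the mutant and 9.95, 11.47 and 10.58 in the wild type, so the lowest mutant value lay just above the highest wild-type value. The mean was 1.29 ± 0.41, 2.45-fold, with an adjusted p of 0.0713 in limma. It passed in 3 of 18 alternatives, which were a dye term in the fit, leaving out replicate 2 and a threshold of 0.1. Adamts9, a versican-cleaving enzyme, read 0.41, 0.75 and -0.30 (mean 0.28 ± 0.54). Adamts15 read 0.68, 0.32 and -0.05, Adamts8 read 0.23, -0.90 and 0.33, and the aggrecanase Adamts4 read -0.39, -0.11 and 0.15. None of these 4 kept one sign on all arrays. The aggrecanase Adamts5 was well above background in 2 of 6 channels and Adamts20 in none, and neither was kept.

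The other ADAMTS enzymes had 6 of 9 genes kept, none called, and a median of -0.06. Adamts17, a gene tied to fibrillin microfibrils through an inherited disorder of short stature and lens dislocation, read 1.66, 2.06 and 0.30. Array 3 was far below the others, the mean was 1.34 ± 0.93, and the adjusted p was 0.163. Adamts10, tied to the same disorder, read -0.25, -0.22 and -0.89 on its brighter probe (mean -0.45 ± 0.38, adjusted p = 0.364). Adamts19 read -1.03, 0.72 and -1.11, with array 2 alone positive and the largest SD of the 30 genes, 1.03. Like Mmp17, it passed as lower without replicate 2. Adamts7, which cuts the cartilage matrix protein Comp, read 0.05, -0.57 and -0.20. Adamts18 read 0.45, 0.50 and -0.53, and Adamts16 read 0.08, 0.25 and -0.01. Adamts16 passed the filter through the mutant alone, with 3 mutant and 2 wild-type arrays well above background. Adamts6, Adamts12 and Adamts13, the last the proteinase of von Willebrand factor, were not kept.

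The secreted matrix metalloproteinases had 5 of 16 genes kept, none called, and a median of 0.21. Mmp2, the gelatinase whose precursor Mmp14 activates, was higher in the mutant on every array, at 0.43, 0.80 and 0.77. Its levels were 11.45, 12.18 and 11.71 in the mutant and 11.03, 11.38 and 10.93 in the wild type. The lowest mutant value thus lay just above the highest wild-type value. The mean was 0.67 ± 0.21, 1.59-fold, with an adjusted p of 0.164 in limma, and it did not pass in any of the 18 alternatives. Mmp9, the other gelatinase, read -0.08, -0.01 and 0.49 (mean 0.13 ± 0.31, adjusted p = 0.781). Its sign rested on array 3, and without that replicate the mean was -0.04. Mmp11, a stromelysin activated inside the cell, read 0.17, 0.90 and -0.28. The macrophage elastase Mmp12 read 0.45, -0.00067 and 0.18 and passed the filter through the mutant alone, and the stromelysin Mmp10 read -0.23, 0.02 and 0.04.

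The tissue inhibitors had 3 of 4 genes kept and none called. Timp1 was lower in the mutant on every array, at -1.31, -2.02 and -0.80. Its levels were 7.88, 9.32 and 9.30 in the mutant and 9.19, 11.34 and 10.09 in the wild type. The genotypes overlapped, since the wild type of array 1 lay below the mutant of arrays 2 and 3. The mean was -1.38 ± 0.61, 2.60-fold lower, with an adjusted p of 0.0930 in limma. Like Adamts1 it passed in 3 of 18 alternatives, with a dye term, without replicate 2 and at a threshold of 0.1.

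Timp2, which both inhibits Mmp14 and links it to the Mmp2 precursor, read 0.29, -0.49 and 0.69 (mean 0.16 ± 0.60, adjusted p = 0.809). A second Timp2 probe was set aside because its spot on array 1 had an outlier flag, and it read -0.40 and -0.01 on arrays 2 and 3. Timp3, the matrix-bound inhibitor that also acts on ADAMTS enzymes, read 0.84, -0.29 and 0.04 (mean 0.20 ± 0.58, adjusted p = 0.756). The mean of either was below 0 in at least 1 alternative, and array 2 was the lowest array for both. Timp4 was well above background in 1 mutant and 2 wild-type channels and was not kept.

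The ADAMTS-like proteins had 4 of 5 genes kept, none called, and a median of 0.13. Adamtsl4, a fibrillin-binding protein needed for the lens suspension, was lower in the mutant on every array, at -0.80, -2.09 and -0.77 (mean -1.22 ± 0.76, 2.33-fold lower, adjusted p = 0.147). It passed in 2 of 18 alternatives, with a dye term (adjusted p = 0.0147) and without replicate 2 (adjusted p = 0.0347). Its levels were 7.35, 7.98 and 7.12 in the mutant and 8.15, 10.07 and 7.89 in the wild type, which overlap by the mutant of array 2. Adamtsl1 was higher on every array, at 1.50, 0.68 and 0.27 (mean 0.82 ± 0.63, adjusted p = 0.229). Adamtsl2, a microfibril-associated protein, read 0.07, 0.39 and 0.63 (mean 0.36 ± 0.28, adjusted p = 0.413). It passed the filter through the wild type alone, with 2 of 3 mutant arrays well above background, although its ratios were positive. Adamtsl5 read 0.23, -0.56 and -0.00053 on its brighter probe, and Adamtsl3 was not well above background in any channel.

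For 8 of the 30 genes a second probe was also kept, and the probes did not always read alike. Adamts10 was opposite in sign, at -0.45 ± 0.38 on its brighter and 0.86 ± 0.29 on its dimmer probe, each with one sign on all arrays. The dimmer Adamts10 probe passed the filter through the mutant, where it was brighter, and was well above background on 2 of 3 wild-type arrays. The probes of Adamtsl5 gave -0.11 ± 0.41 and -1.14 ± 0.32, where the dimmer probe read -1.50, -0.90 and -1.01 and was well above background on 3 wild-type arrays and 1 mutant array. This Adamtsl5 probe passed the filter through the wild type, where it was brighter, so its ratio rests on a mutant signal mostly near background. Adamts17 showed its difference on the brighter probe, 1.34 ± 0.93, and 0.11 ± 0.08 on the dimmer. Those of Mmp11 were close on each array, with means of 0.26 ± 0.59 and 0.29 ± 0.64. The second probes of Adamts8, Adamts9 and Mmp24 averaged -0.20, -0.12 and -0.21, beside -0.12, 0.28 and -0.03 on the first.

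**Figure D3:**
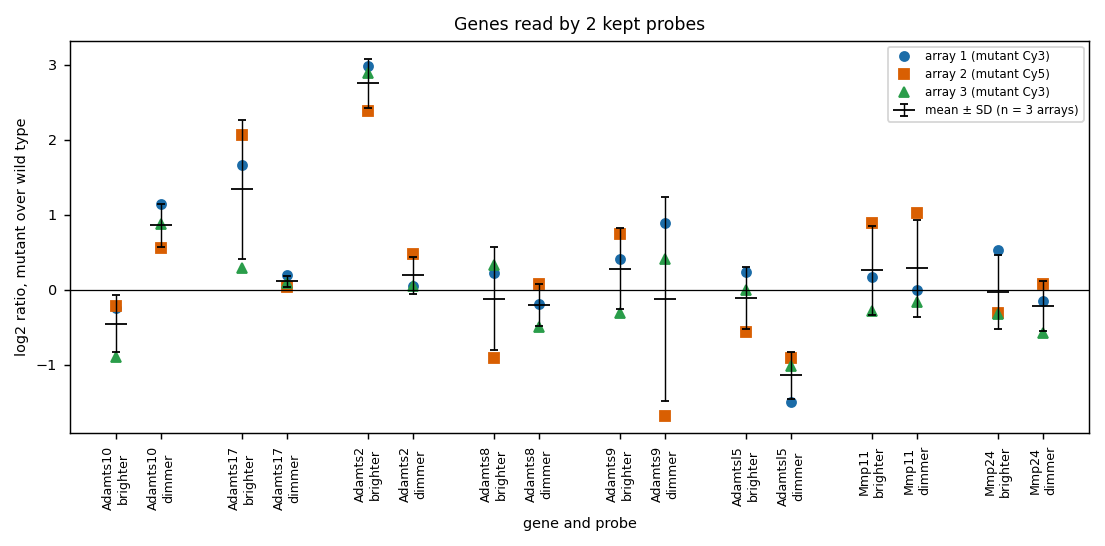
Log2 ratio of mutant over wild type (y axis) on the brighter and the dimmer kept probe (x axis) of the 8 genes with 2 kept probes, with 1 symbol per array and the mean ± SD of 3 arrays. The probes of Adamts2 averaged 2.75 and 0.19, those of Adamts10 lie on opposite sides of 0, and those of Mmp11 lie close together.

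The 21 genes that were not kept were unevenly placed. The array holds 10 genes of a matrix metalloproteinase block on chromosome 9 (Mmp1a, Mmp1b, Mmp3, Mmp7, Mmp8, Mmp10, Mmp12, Mmp13, Mmp20 and Mmp27), whose 12 probes lie between chr9:7282762 and chr9:7697700 (mm9). Of these 10 genes 2 were kept, Mmp10 and Mmp12, against 28 of the 41 genes elsewhere. Both kept genes were dim, with mean levels of 6.70 for Mmp10 and 6.80 for Mmp12 in the mutant. In the wild type these were 6.75 and 6.59. Mmp1b, Mmp7, Mmp8 and Mmp20, the last an enamel enzyme, were not well above background in any of 6 channels. The collagenase Mmp13 was so in 1 mutant channel, the stromelysin Mmp3 in 1 wild-type channel, and Mmp1a in 2 wild-type channels. Outside the block Mmp16, Mmp28, Adamts20 and Adamtsl3 had no channel well above background, which made 8 such genes in all. A dim probe gives only an upper bound on a level, so for these genes no ratio is given.

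**Figure D4:**
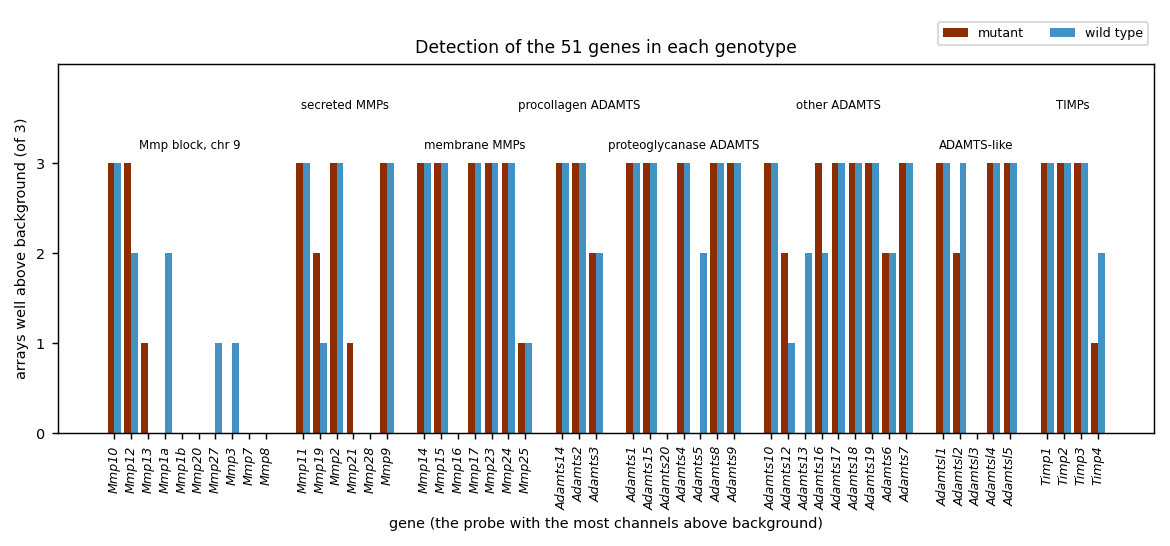
Number of arrays, of 3, on which the best probe of each of the 51 genes (x axis, with the chromosome 9 block apart and the rest by role) was well above background in the mutant (dark) and the wild type (blue). Bars reach 3 for 2 of the 10 genes of the block, Mmp10 and Mmp12, in at least 1 genotype.

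Promoters of the block were set beside those of the other genes. The 5 shown belong to the genes with the largest ratios and to a kept and a not kept gene of the block. RefSeq promoters (GRCm38.p6) were found for 36 of the 51 genes, 39 promoters in all, and the 250 bases before the start are read here 5′ to 3′. Capitals mark 3 motifs searched on both strands, with overlapping matches counted. These were the AP-1 motif TGANTCA, the GC box GGGCGG and the TATA box TATAAA. The stretches are chr11:50601835-50602084 for Adamts2, chr14:54431348-54431597 for Mmp14, chrX:20869916-20870165 for Timp1, chr9:7502092-7502341 for Mmp10 and chr9:7272264-7272513 for Mmp13, all on the plus strand.
Adamts2: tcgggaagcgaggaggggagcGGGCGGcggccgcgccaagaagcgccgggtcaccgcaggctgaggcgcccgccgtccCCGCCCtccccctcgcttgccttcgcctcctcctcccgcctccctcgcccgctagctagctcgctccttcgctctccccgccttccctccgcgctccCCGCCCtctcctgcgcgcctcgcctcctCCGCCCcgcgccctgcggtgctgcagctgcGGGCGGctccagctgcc
Mmp14: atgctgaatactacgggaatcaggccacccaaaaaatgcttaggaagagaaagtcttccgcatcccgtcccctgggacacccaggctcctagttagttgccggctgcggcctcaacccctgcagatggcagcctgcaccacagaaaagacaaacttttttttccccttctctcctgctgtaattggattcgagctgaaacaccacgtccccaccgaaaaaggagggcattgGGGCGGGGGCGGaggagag
Timp1: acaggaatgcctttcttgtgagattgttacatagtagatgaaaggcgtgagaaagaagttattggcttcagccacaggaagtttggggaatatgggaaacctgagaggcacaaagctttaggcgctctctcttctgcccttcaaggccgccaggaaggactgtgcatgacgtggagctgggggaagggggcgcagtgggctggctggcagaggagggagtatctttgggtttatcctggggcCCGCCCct
Mmp10: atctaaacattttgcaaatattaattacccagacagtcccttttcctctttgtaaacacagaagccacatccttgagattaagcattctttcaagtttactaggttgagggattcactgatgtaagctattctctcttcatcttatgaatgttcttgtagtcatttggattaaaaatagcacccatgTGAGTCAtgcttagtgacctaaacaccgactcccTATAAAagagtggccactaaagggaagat
Mmp13: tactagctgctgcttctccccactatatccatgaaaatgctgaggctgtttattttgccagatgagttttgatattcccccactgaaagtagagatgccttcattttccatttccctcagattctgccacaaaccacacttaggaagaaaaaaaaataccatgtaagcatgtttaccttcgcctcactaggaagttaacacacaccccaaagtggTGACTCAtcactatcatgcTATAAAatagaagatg

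The Adamts2 stretch holds 5 GC boxes and that of Mmp14 holds 2 side by side, with no AP-1 motif or TATA box in either. The Timp1 stretch holds 1 GC box. Those of Mmp10 and Mmp13 hold 1 AP-1 motif and 1 TATA box each and no GC box. Mmp10 was kept, at a low level, and Mmp13 was not. An AP-1 motif was found in 8 of 12 promoters of the block (66.7%) and in 0 of 27 promoters of the other genes, against 6.75% of all 32851 promoters. A TATA box was in 7 of 12 (58.3%) and in 3 of 27 (11.1%), against 12.4% of all. The GC box showed the reverse, with 0 of 12 and 20 of 27 (74.1%), against 32.7% of all. The ratio of observed to expected CpG had a median of 0.11 in the block, 0.64 in the other genes and 0.37 over all promoters. Among genes outside the block, that median was 0.68 for those kept and 0.62 for those not kept. These letters describe the sequences, and no binding or methylation was measured.

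Enzymes and partners outside these families were read from lists of related genes. Of the ADAM sheddases, which cut proteins off the cell surface, 7 of 9 were kept, none was called, and 4 were higher on all arrays, with a median of 0.40. Adam8 had the smallest p there, at 1.81, 0.26 and 1.78 (adjusted p = 0.164). The astacin proteinases had 3 of 5 kept and none called, with a median of -0.23. Bmp1, the procollagen C-proteinase, read 0.28, 0.66 and 0.15, while Mep1b read -2.41, -2.01 and 1.12 and Tll1 averaged -0.23 ± 0.23. Activators, non-Timp inhibitors and related factors had 17 of 18 kept, 5 higher and 2 lower on all arrays and none called, with a median of -0.08. Of these, Pcolce, an enhancer of procollagen C-proteinase, averaged 1.36 ± 0.39 (adjusted p = 0.0664), the proprotein convertase Pcsk5 averaged 1.66 ± 0.63 (adjusted p = 0.0694) and the collagen-binding protein Sparc averaged 1.24 ± 0.41 (adjusted p = 0.0768) in limma. Pcolce2, a second such enhancer, read -2.25, -2.06 and 0.07 (adjusted p = 0.233 in limma).

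Among 12 substrates of ADAMTS enzymes and their matrix neighbours 11 were kept and 1 was called. Fbn1, the main fibrillin of microfibrils, rose with ratios of 2.83, 2.31 and 1.76, a mean of 2.30 ± 0.54 and an adjusted p of 0.0435. Fbn2, the fibrillin of early development, was lower on every array, at -1.35, -1.37 and -1.83, with an adjusted p of 0.0510. The small proteoglycan gene Dcn read 3.94, 4.56 and 0.82, where array 3 lay apart (adjusted p = 0.125). The list's median was -0.09. Of 13 AP-1, Ets and related transcription factors 10 were kept and none was called, with a median of 0.54. Fosb averaged -1.11 ± 0.42 (adjusted p = 0.0955), and Fosl2 and Ets2 averaged 0.88 ± 0.33 and 0.89 ± 0.52.

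Markers of several cell types also differed between the genotypes. An embryoid body is a mixture, and in such bulk RNA fewer cells of a type and less RNA per cell cannot be told apart. The mesenchyme list, whose cells are known to make Mmp14 and Adamts2, had 6 of 7 markers kept, 5 higher on all arrays and 1 called, Acta2 at 2.36 ± 0.14 (adjusted p = 0.0354). Its summed intensity ran from 72641 to 145146 in the mutant and from 19368 to 29399 in the wild type. Such sums, here and below, add unlogged levels of different probes and so follow the brightest probes of a list. Collagen gene Col1a1 was the mesenchyme marker not kept, while Col1a2 and Col3a1, both substrates of Adamts2, averaged 2.84 ± 0.95 and 3.18 ± 2.16. Neither was called in limma (adjusted p = 0.0527 and 0.135), and Col3a1 read only 0.79 on array 3. Pdgfra, the kept marker without one sign, read 0.55, -0.58 and -0.44. The endothelial list had 5 of 6 higher on all arrays and 2 called, Flt1 and Kdr at 3.06 ± 0.39 and 2.27 ± 0.59, with sums of 19662 to 32238 against 4818 to 5081. Cdh5, the endothelial marker without one sign, read 0.43, -0.28 and -0.22. The cardiac list had 6 of 6 higher on all arrays and 1 called, Tnnt2, with sums of 13754 to 76387 against 4004 to 9265. The visceral endoderm list had 5 of 6 higher on all arrays and 1 called, Ttr, with sums of 240999.9 to 393519 against 35787 to 137442. Its marker without one sign, Cubn, read 2.40, -0.23 and 1.51. The part of these markers in the ratios of Adamts2 and Mmp14 was not tested.

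Lower in the mutant on all arrays, as Timp1 was, were 6 of 7 markers of parietal endoderm, a cell layer that secretes basement membrane. One of them was called, Thbd at -3.05 ± 0.41. The marker outside the 6, Sparc, was higher on all arrays, at 1.72, 1.03 and 0.98. The list's sums ran from 169740 to 242409 in the mutant and from 276775 to 416633 in the wild type. Sparc, at a mean level of 16.47, was the brightest of these markers in the mutant. Of 7 neural markers 6 were lower on all arrays and none was called. Their median ratio was -3.57, -0.46 and -4.43, and their sums were 2041 to 2687 in the mutant against 18545, 2895 and 29053 in the wild type, so array 2 stood apart. Macrophage markers, from cells known for Mmp12, had 4 kept, 2 higher and 2 lower on all arrays and none called, with sums of 7599 to 15036 against 5751 to 10516. Osteochondral markers, from cells known for Mmp13, had 4 of 7 kept, with Runx2, Sp7 and Ibsp not kept, no marker with one sign on all arrays and sums of 1878 to 7143 against 4083 to 13593. Trophoblast markers had 2 of 7 higher and 2 lower on all arrays, with a median of 0.02. The higher pair, Hand1 and Cdx2, was called, while Tfap2c, one of the lower pair, averaged -1.66 ± 0.91 (adjusted p = 0.110), and the list had sums of 12928 to 16688 against 8604 to 10990. Pluripotency markers had 1 of 6 higher and 1 lower on all arrays and none called. Their median ratio was -2.28, -1.81 and 0.52, so array 3 stood apart. On arrays 1, 2 and 3 their sums were 13586, 11753 and 66545 in the mutant against 49013, 41058 and 34618 in the wild type. Erythroid markers had 2 of 5 higher on all arrays and none called, with sums of 39536 to 78760 against 17710 to 25194. The part of these markers in the ratios of Timp1 and the other genes was not tested.

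**Figure D5:**
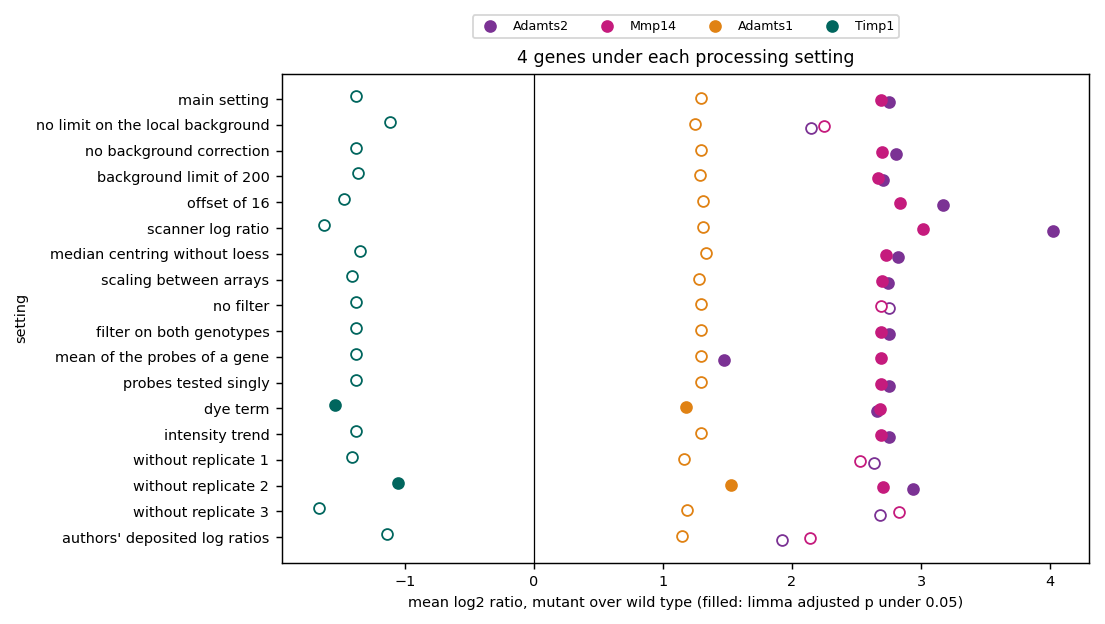
Mean log2 ratio of mutant over wild type (x axis) of 4 genes under the main setting and 17 of the alternatives (y axis), filled where the limma adjusted p was under 0.05. Adamts2 runs from 1.47 to 4.02 and Mmp14 from 2.14 to 3.01, Adamts1 stays above 0 and Timp1 below 0 throughout, and the latter pair is filled with a dye term and without replicate 2.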

How the data were processed

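Total RNA was amplified and equal amounts of Cy3 and Cy5 cRNA were hybridised per array, per the labels' protocols. Feature Extraction 10.7.3.1 made the deposited scanner files, which give intensity of spots and of their surroundings and a log10 ratio of red over green, per the file headers. A further table of the authors gives deposited log2 ratios, whose sign and size, set against the scanner ratios, are those of mutant over wild type. The submitters' processing notes name limma, and how that table was centred or background-corrected stays unknown.

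In R 4.3.3 with limma 3.58.1, local background was limited to 100 units, because 25 spots of array 2 exceeded that (up to 75739) and none elsewhere did. Then followed normexp (offset 50) over all spots and loess within each array, where control spots had no weight. Spots with an outlier flag entered these steps and were left out afterwards, with the control spots, when spots were averaged per probe. Channel levels were scaled with Aquantile. Ratios were turned by the labelled dyes and tested with limma's lmFit and eBayes for a mean of 0 (two-sided, 4.76 degrees of freedom). The fit was tested on simulated data. No spot was saturated, and between 64.8% and 76.0% of spots per channel were well above background. The number of arrays limits the precision.

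The genes, lists and settings were chosen with earlier results of these data known. Array values were printed for called genes, for means of at least 1 with one sign, for the smallest p up to 12 genes, for all Timp genes and for Mmp2, Mmp9 and Mmp14, and beyond that rule for the other kept genes. Of other lists, genes with the smallest p were named, then some that did not share their direction, and Col1a2 and Col3a1 as Adamts2 substrates. Probe coordinates are mm9.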

Additional observations from a re-analysis of the deposited data

How the results depend on the processing

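Adamts2 and Mmp14 kept their direction in 18 of 18 alternatives and were called in 13. Part of this tally was fixed in advance. The threshold of 0.1 could not lose a call made at 0.05. Alternatives that reuse the same ratios, such as leaving out a replicate, could not turn signs that were positive on every array. The 2 calls became 0, and the 325 calls over all genes 0, without a limit on the background (Adamts2 2.15, adjusted p = 0.278, and Mmp14 2.25, adjusted p = 0.189; 3021 genes at an unadjusted p under 0.05 and a smallest adjusted p of 0.168 in limma). They also became 0 and 0 without a filter on dim probes (smallest adjusted p 0.0563, 4782 genes unadjusted) and in the authors' deposited log ratios (smallest adjusted p 0.0599, 3838 unadjusted; Adamts2 1.92, Mmp14 2.14). Leaving out each replicate gave 0 to 5082 genes called in limma, 0 to 3 of these families higher and 0 to 4 lower. Replicates 1 and 3 were those whose absence left 0 (1659 and 2370 genes at an unadjusted p under 0.05), and without replicate 2, the array with exchanged dyes, 5082 were called. A dye term gave 2534 genes, with 3 of these families higher (Adamts1, Adamts2, Mmp14) and 4 lower (Adamtsl4, Mmp17, Mmp23, Timp1). An offset of 16 gave 733 genes, the scanner's log ratio 769, probes tested singly 664, an intensity trend 605 and a threshold of 0.1 1352, the last with 3 of these families higher and 1 lower. The cause of these moves was not tested. Signs turned for Adamts10 with probes averaged (0.20), for Timp2 with a dye term (-0.0017) and when replicates were left out (-0.10 to 0.49, lowest without replicate 3), for Timp3 when replicates were left out (-0.12 to 0.44, lowest without replicate 1) and for Mmp9 likewise (-0.043 to 0.24, lowest without replicate 3). The median ratio over the genes or probes that each alternative kept (51 genes with no filter, 27 with a filter on both genotypes, 38 probes tested singly and otherwise 30 genes) moved by less than the spread between arrays. That spread was the SD of the array medians of 0.23, 0.01 and 0.04, which is wide beside a median of 0.14. A fall to 0.062 with no filter therefore still lay within it. Each array pairs 1 mutant with 1 wild-type RNA, so the test of its ratios is already the paired analysis, and no further replicate block could be fitted.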
